A study of Mus musculus with 5 samples.

Results

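The Myt1 zinc finger family has 3 members in the mouse, Myt1, Myt1l and St18, and this is an account of where NEUROD2 was bound at their loci in the embryonic cortex. NEUROD2 is a basic helix-loop-helix transcription factor of newborn excitatory neurons of the cortex, and it binds DNA at E-boxes. Chromatin from the cerebral cortex of BALB/c embryos at E14.5 was immunoprecipitated with 3 antibodies against NEUROD2, here ab1 (raised in mouse), ab2 and ab3 (both raised in rabbit), and sequenced. Antibodies against GFP, a protein that the tissue does not contain, gave the 2 control libraries, 1 from each host species, and ab2 and ab3 were set against the same control. The cortices of several litters were pooled for each precipitation and each antibody has 1 library, so the 3 antibodies are separate measurements of a single condition, with no replicate of any of them. No gene was altered and no treatment was given in any of the libraries.

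The members were selected on the deposited peak lists themselves. A peak counted for a member where its midpoint lay within the span of the gene's longest transcript in GENCODE, or within 50 kb of either end, and peaks that overlapped by at least 1 bp were merged into a region. This gave 64 regions from 122 peaks, of 53833 regions from 94621 peaks in the whole series. Myt1l had 42 regions, St18 had 16 and Myt1 had 6. Since the family was picked with its peak counts known, the counts of peaks and regions and the scores are given as a description and without a test. A peak score is the peak caller's −log10 of the p-value times 10, computed against the GFP control of the matching species, and it was not scaled between libraries, so that scores of different antibodies are not on 1 scale. The GFP libraries enter only as the control of the peak caller, and no peak list of theirs was used here.

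MYT1 family proteins carry clusters of zinc fingers of an unusual kind that recognise a short core, AAAGTT, and they act mainly as repressors of transcription in developing neurons. MYT1L is made by nearly all neurons and keeps genes of other cell types silent. MYT1 counters Notch signalling in neural progenitors. ST18, the third member, is found in neurons and in endocrine cells of the pancreas.

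The loci differ in size. In mm10, Myt1l (ENSMUSG00000061911) runs over 394.8 kb of the + strand, at chr12:29528384-29923213, with 25 exons in its longest transcript. St18 (ENSMUSG00000033740) runs over 373.7 kb, at chr1:6487231-6860934 on the + strand, with 24 exons. Myt1 (ENSMUSG00000010505) is much shorter, 64.5 kb at chr2:181763332-181827797 on the + strand, with 23 exons.

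DNA from 8 of the regions is shown first, chosen after the values had been seen. Each is taken from the + strand of mm10 and centred, where 200 bases are given, on the middle of the stretch that the peaks of all the antibodies at that region had in common, a placement chosen after the data had been seen. Regions are numbered along each locus. Capitals mark the core of an extended E-box, which is CAGCTG or CAGATG or CATCTG or CATATG with G or T as the next base, on either strand. CAGATG and CATCTG are the same core read from opposite strands and are counted together as CAGATG. A G or T after either reading was enough, as at Myt1l region 40, where T follows CATCTG. Region 19 of Myt1l was the region of the family with the highest score for each antibody, and regions 40 and 15 came next by ab1. Only the 185 bases of the window of Myt1l region 40 that lie outside a UTR are given, and they are part of the first exon of the next gene, Pxdn, which codes for a peroxidase of the extracellular matrix. St18 regions 3, 4 and 11 are those that all 3 antibodies marked at St18, and of region 11 the 70 bases outside an annotated UTR are given. Myt1 region 3 had the highest ab1 and ab2 scores at Myt1. Myt1l region 35, also among the higher scores of its locus, is shown as a window without a core.
Myt1l region 15, chr12:29639747-29639946: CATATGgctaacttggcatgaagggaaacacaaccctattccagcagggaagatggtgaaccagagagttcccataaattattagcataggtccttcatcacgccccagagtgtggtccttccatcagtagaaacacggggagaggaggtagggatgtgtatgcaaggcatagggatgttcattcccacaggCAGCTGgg
Myt1l region 19, chr12:29663442-29663641: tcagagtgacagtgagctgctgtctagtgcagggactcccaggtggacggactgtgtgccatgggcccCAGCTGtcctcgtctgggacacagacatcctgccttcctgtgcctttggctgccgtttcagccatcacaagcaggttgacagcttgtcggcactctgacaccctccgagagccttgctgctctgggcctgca
Myt1l region 40, chr12:29938134-29938318: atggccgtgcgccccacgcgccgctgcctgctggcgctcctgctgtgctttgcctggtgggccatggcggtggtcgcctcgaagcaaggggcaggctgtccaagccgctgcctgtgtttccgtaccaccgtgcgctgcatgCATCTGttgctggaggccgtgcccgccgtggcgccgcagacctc
Myt1l region 35, chr12:29882949-29883148: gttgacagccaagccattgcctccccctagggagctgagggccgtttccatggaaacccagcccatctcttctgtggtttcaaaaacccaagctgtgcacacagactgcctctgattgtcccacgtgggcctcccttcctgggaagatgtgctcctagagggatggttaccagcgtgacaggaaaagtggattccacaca
Myt1 region 3, chr2:181759161-181759360: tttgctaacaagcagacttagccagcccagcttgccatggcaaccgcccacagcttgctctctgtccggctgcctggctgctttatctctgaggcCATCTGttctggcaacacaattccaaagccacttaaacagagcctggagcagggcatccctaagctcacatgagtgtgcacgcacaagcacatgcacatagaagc
St18 region 3, chr1:6483543-6483742: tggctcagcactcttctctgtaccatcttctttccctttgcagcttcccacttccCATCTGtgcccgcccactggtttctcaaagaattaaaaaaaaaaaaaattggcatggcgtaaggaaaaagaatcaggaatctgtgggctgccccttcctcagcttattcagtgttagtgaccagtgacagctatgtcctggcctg
St18 region 4, chr1:6510562-6510761: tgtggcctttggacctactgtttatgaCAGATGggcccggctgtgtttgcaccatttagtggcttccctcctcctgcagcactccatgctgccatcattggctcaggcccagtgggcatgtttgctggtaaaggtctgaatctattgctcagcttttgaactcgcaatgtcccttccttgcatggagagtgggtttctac
St18 region 11, chr1:6752369-6752438: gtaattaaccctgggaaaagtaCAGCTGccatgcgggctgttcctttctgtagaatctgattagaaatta
The stretch shown of Myt1l region 15 holds 2 cores, that of Myt1l region 35 holds none, and each of the others holds 1. The same window held no core at Myt1l regions 3, 20 and 30, at Myt1 regions 4 and 6 or at St18 region 7 either, and over all 64 regions 56.2% of such windows held one.

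At Myt1l, ab1 gave 43 peaks, ab2 31 and ab3 9, which merged into 42 regions. Of these, 9 were marked by all 3 antibodies, 21 by a pair of them and 12 by 1 alone. The regions lay along the whole gene and were closest together near its start, where regions 2 to 13 fell between 2.1 kb upstream and 41 kb downstream of it. Introns of the longest transcript held 33 region midpoints, 3 lay upstream of the start, 5 downstream of the end and 1 in exon 4, which is part of the 5'UTR. The largest introns held most of them: intron 1 (37.9 kb) held 9, intron 2 (77.5 kb) held 4, intron 3 (86.5 kb) held 8, intron 4 (44.4 kb) held 4, intron 8 (27.1 kb) held 3 and intron 18 (30.8 kb) held 4. Introns 9 and 21, of 15.1 and 15.5 kb, held none. Neighbouring midpoints lay a median of 7.07 kb apart, and the widest gap, of 60.6 kb, fell inside intron 2. Together the regions covered 38.9 kb, or 7.87%, of the window of 494.8 kb.

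The strongest binding at Myt1l lay far from its promoter. Region 19, in intron 3 at 135.6 kb from the start, scored 3100 with ab1, 2012.96 with ab2 and 743.7 with ab3. In the ab1 list 730 peaks, or 1.41%, scored as high or higher, and 661 of all ab1 peaks sit at exactly 3100, so the score does not rank the peaks that share this value. In the other libraries 409 ab2 peaks (1.16%) and 84 ab3 peaks (1.12%) scored at least as high as region 19, so the region stood near the top of each list. Region 40, beyond the 3' end at 410.1 kb from the start, scored 2883.74, 1579.71 and 266.15 with ab1, ab2 and ab3. Its midpoint lies 848 bp from the start of Pxdn, so that it is a promoter region of that gene as much as a distal region of Myt1l. Region 15, in intron 2 at 111.5 kb, scored 2228.93, 1458.24 and 192.75.

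The region over the Myt1l start itself was weaker than these 3. Region 3, at chr12:29526826-29529016, holds the starts of 3 annotated Myt1l transcripts, and it scored 1122.91 with ab1, 388.57 with ab2 and 54.53 with ab3, the last being the lowest ab3 score at the locus. Region 2, just before it at 2.1 kb upstream, scored 534.57 and 178.34 with ab1 and ab2 and had no ab3 peak. Further starts lie inside intron 1, and they too were covered: region 5 (363.54 and 103.49) holds 1 transcript start and region 6 (210.12 and 59.18) holds 3. Of the remaining regions with all 3 antibodies, region 36 scored 1543.96, 807.17 and 124.5, and region 35, its neighbour in intron 18, scored 1244.7, 599.8 and 78.62. Region 23 in intron 3 scored 1284.88, 576.85 and 182.36. Regions 30 (547.43, 332.91 and 61.36) and 20 (238.07, 275.03 and 68.42) were the lowest of the 9 by ab1, below regions 17 (687.97) and 34 (741.23), which had no ab3 peak. The 9 regions with all 3 antibodies had a median ab1 score of 1285, the 21 with a pair 250.8 and those with ab1 alone 68.7, against 1169, 208.6 and 77.6 for the same classes over the whole series.

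**Figure D1:**
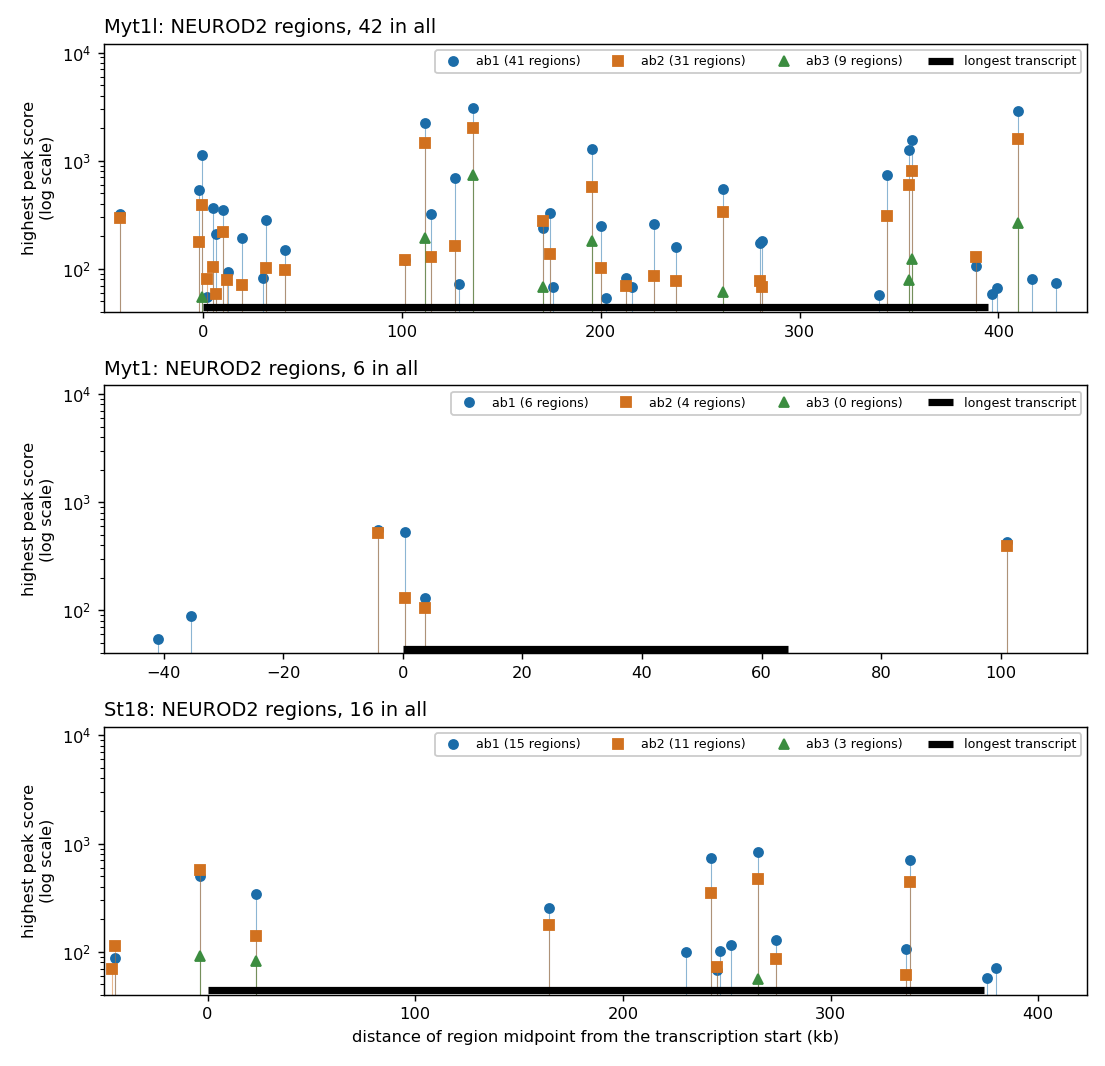
Highest peak score in each region (vertical axis, log scale) against the distance of the region's midpoint from the transcription start (kb) at Myt1l, Myt1 and St18, with circles for ab1, squares for ab2, triangles for ab3 and a black bar for the longest transcript. The highest points of Myt1l stand at 111.5, 135.6 and 410.1 kb, those of St18 lie between 242.5 and 338.2 kb, and Myt1 has no triangle.

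St18 is almost as long as Myt1l but had fewer regions, and its highest score was lower for each antibody. The median peak score was 116.2 against 191.5 at Myt1l for ab1, 140 against 128.4 for ab2 and 82.46 against 124.5 for ab3. Here ab1 gave 15 peaks, ab2 11 and ab3 3, in 16 regions, of which 3 had all 3 antibodies, 7 a pair and 6 a single antibody. Introns held 11 midpoints, 3 lay upstream and 2 downstream. Intron 2, of 250 kb, makes up 66.9% of the gene and held 6 of them. The highest ab1 score belonged to region 11 in intron 3, at 265.1 kb, with 842.16, 466.1 and 55.61 for ab1, ab2 and ab3. It covers an exon that is UTR in 3 St18 transcripts. Those 3 transcripts start in region 7, at 242.5 kb, which holds 5 annotated starts in all and scored 741.37 with ab1 and 352.99 with ab2. Region 14 in intron 13 scored 703.29 and 444.06. At the start of the longest transcript no region came within 1 kb of it, and the nearest, region 3 at 3.7 kb upstream, scored 501.81, 565.84 and 90.46, with ab2 above ab1. Region 4, at 23.4 kb in intron 2, was the only other region that ab3 marked, with 341.05, 139.98 and 82.46. In the ab1 list 6018 peaks (11.6%) scored at least as high as region 11, and in the ab3 list 3679 peaks (49.3%) scored at least as high as region 3.

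Myt1 had 6 regions, with 6 peaks of ab1, 4 of ab2 and none of ab3. A pair of antibodies marked 4 of them. Region 3, at chr2:181758801-181759699 and 4.1 kb upstream of the start, scored 548.17 with ab1 and 517.55 with ab2. Region 4, over the start of the longest transcript, scored 530.92 with ab1 but 131.1 with ab2. Region 5, at 3.8 kb in intron 1, holds the starts of 4 further transcripts and scored 128.75 and 103.98. Region 6 lies downstream, 40 bp from the start of Polr3k, which codes for a subunit of RNA polymerase III, and scored 426.87 and 390.71. Regions 1 and 2, more than 35 kb upstream, had ab1 peaks of 54.79 and 89.02 only, and the protein-coding gene with the nearest start is Oprl1, the nociceptin receptor. The midpoints of regions 5 and 6 lay 97.2 kb apart, a stretch without a peak that takes in the rest of the Myt1 gene. The ab3 library holds 7470 peaks against 51841 for ab1 and 35310 for ab2, so that a region without an ab3 peak cannot be read as one without binding.

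The edge of the window mattered most at Myt1, where regions 1, 2 and 6 lay more than 35 kb outside the gene. With a flank of 20 kb in place of 50 kb, Myt1 had 3 regions in place of 6, Myt1l 39 in place of 42 and St18 14 in place of 16. The outermost regions inside it were 41.6 kb before the start (ab1 322.44) and 34 kb after the end (ab1 74.18) of Myt1l, and the next outside were at 63.1 kb (ab1 96.22) and 81.2 kb (ab1 337.58). At Myt1 the outermost lay 40.9 kb before the start and 36.6 kb after the end, and the next one outside was 83 kb before the start, with an ab1 score of 55.31. At St18 they lay 46 kb before the start and 6.2 kb after the end, and the next ones outside were 272 and 228 kb away.

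Several regions lie nearer to the start of another gene than to that of the member. With starts of any gene type counted, 4 of the 42 Myt1l regions were nearest to Myt1l, 19 to the antisense transcript C630031E19Rik inside the gene, 10 to Pxdn and 9 to the transcript Gm20208. With protein-coding genes alone, 25 were nearest to Myt1l and the others to Pxdn. At St18 3 of 16 were nearest to St18, 11 to the unclassified transcript Gm42492 and 2 to the pseudogene Gm19026, and with protein-coding genes alone 12 were nearest to St18. At Myt1 3 of 6 were nearest to Myt1 either way. Which gene a region acts on cannot be read from these files, so that a region is called a Myt1l, Myt1 or St18 region here by its position alone.

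Set beside other genes, Myt1l stood among the loci with the most regions, which is what it was picked for. Over 21938 protein-coding loci treated in the same way, the median was 3 regions a locus, and 36 loci had 42 or more. For regions with 2 or more antibodies the median was 1, and 22 loci had 30 or more, Myt1l included. Long genes have more room for regions, and among the 552 genes with a span of at least 300 kb the median was 13 regions, with 33 at 42 or more. St18 with 16 regions was near that median for its length, and 237 of the 552 long genes had as many or more. Per 100 kb of window, Myt1l had 8.49 regions, Myt1 3.65 and St18 3.38, against a median of 2.15 for the long genes and 1.96 for all loci. At least 1 region with 2 or more antibodies was found at each of the 3 members, against 67.6% of all protein-coding loci, and at least 1 with all 3 antibodies at Myt1l and St18, against 26.7%. These shares were known when the family was picked, and nothing is read from them.

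**Figure D2:**
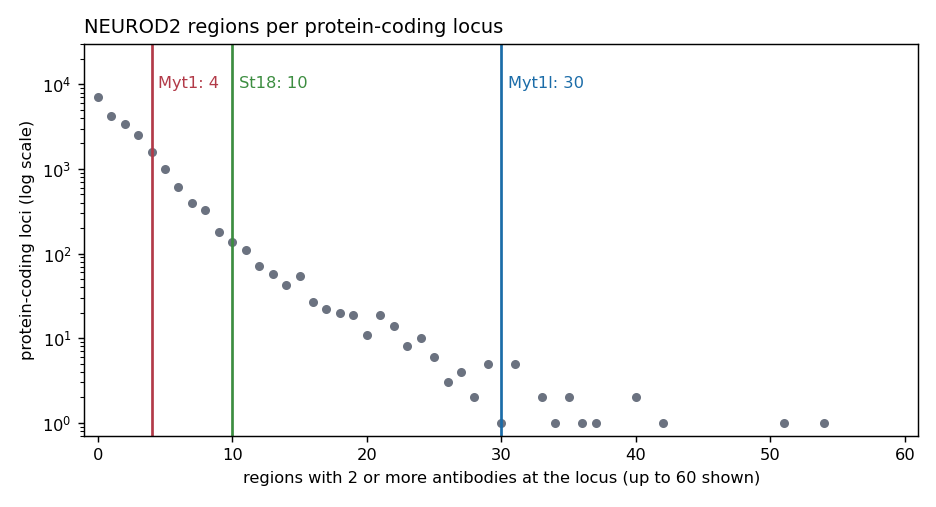
Number of protein-coding loci (vertical axis, log scale) that hold a given number of regions with 2 or more antibodies (horizontal axis, up to 60), with lines at Myt1 (4), St18 (10) and Myt1l (30). At or right of the Myt1l line are 22 loci, 4 of them beyond the axis.

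The genes whose counts of ab1, ab2 and ab3 peaks were most like those of Myt1l, by the distance between log2 counts plus 1 over the 3 libraries, were Zfhx3, Sox5 and Rbfox3, with 46, 45 and 43 ab1 peaks, 31, 32 and 31 ab2 peaks, and 10, 10 and 11 ab3 peaks. They code for a homeodomain zinc finger protein, an SRY-box factor of deep-layer cortical neurons and the neuronal nuclear antigen NeuN. For St18 the nearest were Trmt1 and G430095P16Rik, whose counts of 15, 11 and 3 were equal to its own, and then, level with 2 other genes, Bcr. Trmt1 and G430095P16Rik lie side by side and their windows overlap. For Myt1, 158 genes had the same counts, and none is named.

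The antibodies ranked the regions of the family alike. Over the 44 regions with both an ab1 and an ab2 peak, the log10 scores had a Pearson r of 0.884 and a Spearman rho of 0.862, next to 0.885 and 0.845 over 32210 regions of the series. Over the 12 regions with an ab1 and an ab3 peak, r was 0.73 and rho 0.713, next to 0.683 and 0.738 in the series. The regions of a locus share their libraries and were kept only where both peaks passed the peak caller, so these values describe the regions and carry no p. The ab1 score was a median of 1.82 times the ab2 score and 9.88 times the ab3 score, next to 1.84 and 10.4 in the series. ab2 scored above ab1 in 3 of 30 Myt1l regions, in 3 of 10 St18 regions and in none of 4 Myt1 regions, against 10.8% of regions in the series. The midpoints of the highest ab1 and ab2 peak in a region lay a median of 67 bp apart (range 1 to 516 bp), next to 54 bp in the series. For ab1 and ab3 the median was 146 bp (range 12 to 423 bp), next to 73 bp in the series. Of the 64 regions, 18 had an ab1 peak alone, 2 an ab2 peak alone and none an ab3 peak alone. The 18 had ab1 scores between 53.77 and 116.2, below the median of 149.2 over all ab1 peaks.

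**Figure D3:**
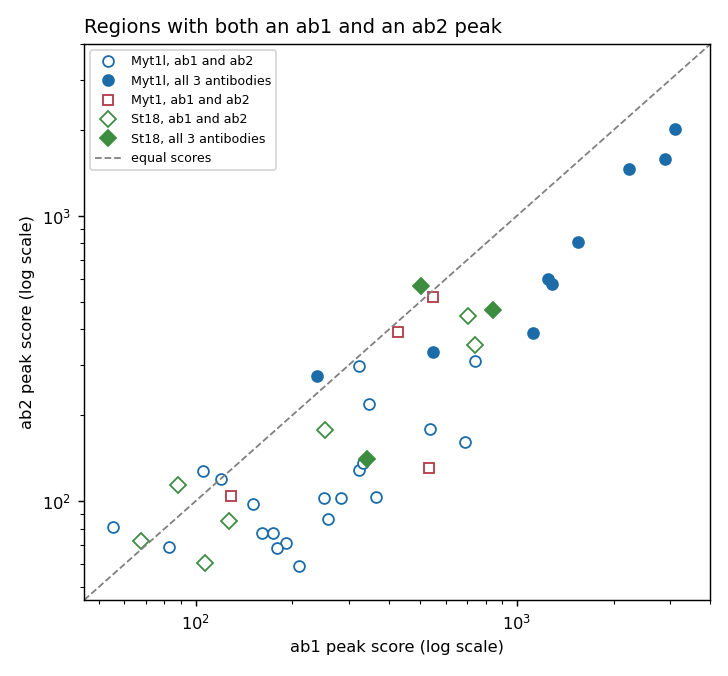
Score of the ab2 peak against that of the ab1 peak (both on log scales) for the 44 regions with both, with circles for Myt1l, squares for Myt1 and diamonds for St18, filled where ab3 had a peak too, and a dashed line at equal scores. Most points lie under the line, and the filled circles of Myt1l lie at the upper right, except 1 at an ab1 score of 238.07.

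NEUROD2 binds E-boxes, so the DNA of the regions was searched for the extended E-box as defined above. In the 200 bp around the midpoint of each region, 32 of 64 held at least 1 core, which is 50% (95% Wilson interval 38.1 to 61.9%), against 28 of 128 windows (21.9%, 15.6 to 29.8%) at 1000 bp to either side of the regions. These flanking windows were not kept clear of other regions. Some lie inside a neighbouring region, as after Myt1l region 31, so their share is not that of unbound DNA alone. Over the whole series the shares were 58.6% and 22.4%. Of the 50 cores in the 64 windows, 28 (56%) were CAGATG, 15 CAGCTG and 7 CATATG. With the hexamer alone counted, whatever base followed it, CAGATG was found in 43.8% of the windows of the family and CAGCTG in 26.6%, next to 41.9% and 27.8% in the series.

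At Myt1l the share moved with the place of the window in the region. At the region midpoint of St18 11 of 16 windows (68.8%, 44.4 to 85.8%) held a core, at Myt1 3 of 6 and at Myt1l 18 of 42 (42.9%, 29.1 to 57.8%), and the intervals of St18 and Myt1l overlap. Among regions with 2 or more antibodies it was 9 of 10 at St18 (90%, 59.6 to 98.2%) and 12 of 30 at Myt1l (40%, 24.6 to 57.7%), and these intervals do not overlap. They do overlap with the window at the midpoint of the highest peak (80%, 49 to 94.3%, and 36.7%, 21.9 to 54.5%) and at the stretch the antibodies shared (90%, 59.6 to 98.2%, and 53.3%, 36.1 to 69.8%). Regions of a locus share their libraries and are not replicates, so neither outcome is a test of a difference between the genes. The regions that all 3 antibodies marked at Myt1l had a core at the midpoint in 1 of 9 (11.1%, 2.0 to 43.5%), against 63.4% of the 7160 such regions of the series. These regions are between 1037 and 2465 bp wide, with a median of 1270 bp, against a median of 1071 bp for such regions of the series. Whether their width or the place of the window bears on the share was not tested. At region 19 the window at the region's midpoint is rich in GT repeats. With the window set on the midpoint of the highest peak of the region, 2 of 9 held a core (22.2%, 6.32 to 54.7%), against 64.1% in the series. With the window set on the middle of the stretch that the highest peak of each antibody shared, 5 of 9 held a core (55.6%, 26.7 to 81.1%), against 74.4% in the series. With the whole region searched it was 7 of 9 (77.8%, 45.3 to 93.7%), an interval below the 96.1% of the series, and no core was found in regions 30 and 35. These 9 regions held 1.41 cores per kb, against 2.6 in the series. Over all 64 regions, the share was 50% at the region midpoint, 46.9% at the midpoint of the highest peak, 56.2% at the shared stretch and 84.4% in whole regions, next to 58.6%, 58.9%, 61.2% and 85.6% in the series. Over all 42 Myt1l regions, the series' share lay above the interval at the region midpoint and at the highest peak (40.5%, 27 to 55.5%). It lay inside the interval at the shared stretch (52.4%, 37.7 to 66.6%) and in whole regions (81%, 66.7 to 90%), both of them placements chosen after the data had been seen. At St18 the share was 68.8% at the region midpoint and at the shared stretch and 62.5% at the highest peak, and at Myt1 it was 50% at each of these 3.

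**Figure D4:**
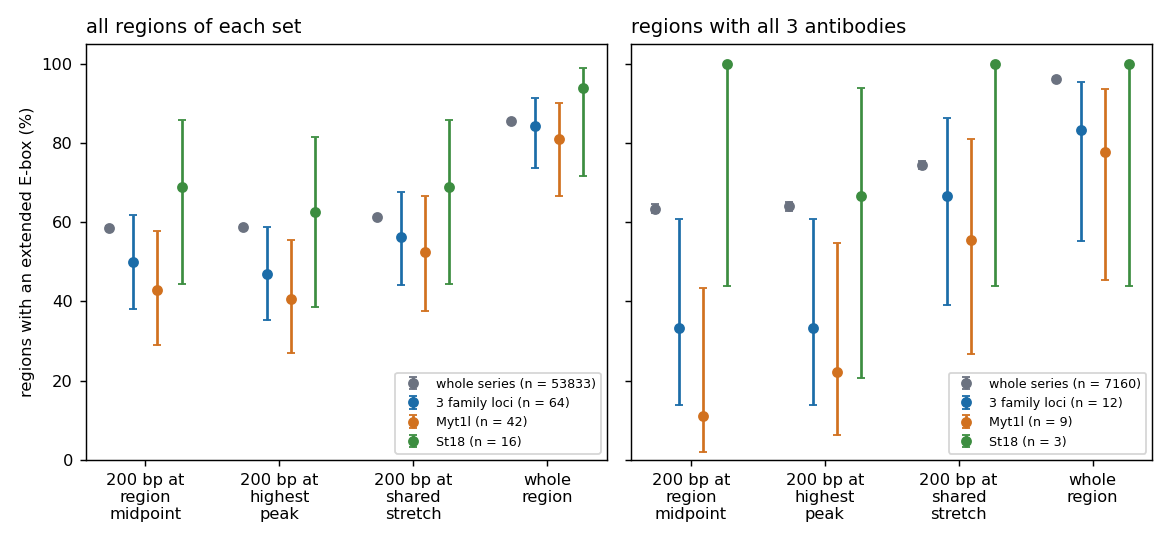
Share of regions with an extended E-box (%), with 95% Wilson intervals, for 4 choices of the stretch searched (horizontal axis), over all regions (left) and over regions with all 3 antibodies (right), in the whole series, the 3 loci, Myt1l and St18. On the right the Myt1l point lies at 11.1% for the region midpoint and at 55.6% for the shared stretch, with the series at 63.4% and 74.4%.

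AAAGTT, the core that MYT1 family proteins bind, was searched for in the same windows, with the flanking ones that fall inside a neighbouring region kept. It was found on either strand in 3 of 64 central windows (4.69%, 1.6 to 12.9%), in Myt1l regions 30 and 33 and St18 region 12, against 17 of 128 flanking windows (13.3%, 8.5 to 20.2%). These intervals overlap, and the series had it in 5.63% at the centre and 13.3% in the flanks. The centres were richer in G and C than the flanks, with medians of 49% and 44.1% for the family and 51% and 44.8% for the series, and the part of base composition in this difference was not tested. Any E-box of the form CANNTG was found in 76.6% of the central windows, next to 82.9% in the series.

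The promoters show a further feature. RefSeq lists 5 Myt1l starts and 3 Myt1 starts, and in the 250 bases before them an extended E-box was found in 3 of the former and in none of the latter, against 22% of 32851 promoters of the genome. Of the Myt1l promoters, counted along the gene, 3, 4 and 5 overlap region 6. Promoters 4 and 5, which hold a core each, lie wholly in annotated UTR. No promoter of St18 was available to search. The promoter of the longest Myt1l transcript is shown because it lies in region 3 and holds the only core of that region, in capitals, on the + strand of GRCm38.p6.
Myt1l promoter, chr12:29528134-29528383: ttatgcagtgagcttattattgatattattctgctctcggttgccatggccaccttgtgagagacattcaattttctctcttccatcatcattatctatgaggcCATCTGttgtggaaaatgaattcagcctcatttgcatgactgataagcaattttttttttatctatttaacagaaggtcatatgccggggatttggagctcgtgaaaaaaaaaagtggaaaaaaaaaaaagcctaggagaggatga
The bases around this core resemble those around the core in Myt1 region 3, 4.1 kb upstream of the Myt1 start, a likeness noticed when the sequences were read and then measured. For each of the 124 extended E-boxes in the 64 regions, 17 bases on either side of the core were compared without gaps with those of every site of another locus with the same core, in both orientations. In 1681 pairs of sites a median of 9 of the 34 bases were identical. The site of Myt1l region 3 and the site of Myt1 region 3 were identical at 25 of 34, and the next pair at 19. Both are shown on the + strand, with identical bases in capitals.
Myt1l region 3, chr12:29528221-29528260: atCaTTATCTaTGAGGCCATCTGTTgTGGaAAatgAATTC
Myt1 region 3, chr2:181759239-181759278: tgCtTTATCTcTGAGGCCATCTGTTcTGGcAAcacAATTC
Both sites lie upstream of the start of the longest transcript, by 141 bp at Myt1l and 4071 bp at Myt1, and in the same orientation to it. The ab1 and ab2 scores there were 1122.91 and 388.57 at Myt1l region 3, where the core lies 803 bp from the middle of the stretch the antibodies shared, and 548.17 and 517.55 at Myt1 region 3, where it lies 4 bp from it. No St18 site reached this likeness to either.

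Genes that MYT1 family proteins are known to work with or act on were looked at for the same marks. Their loci too take in 50 kb on either side of the gene, so a region is given to a gene by position alone and may lie outside it. Given here are the corepressor subunits Sin3a, Sin3b, Hdac1, Hdac2, Kdm1a and Rcor1, the neuronal POU-domain factor Pou3f2, and the Notch pathway genes Notch1, Rbpj, Hes1 and Hes5. The counts cover these 11 loci alone, of which 10 had at least 1 region with 2 or more antibodies, against 67.6% of protein-coding loci, and 3 had a region with all 3, against 26.7%, namely Hdac1, Rcor1 and Rbpj. The median was 3 regions with 2 or more antibodies, against 1 over all loci. Notch1, the receptor, had the most with 6, and Sin3b, a scaffold of the SIN3 complex, had no peak of any antibody. The highest scores belonged to Pou3f2 (2299.04 with ab1, 582.51 with ab2 and no ab3 peak) and Hdac1 (2223.55, 1143.61 and 198.01), close by ab1 to Myt1l region 15 at 2228.93.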

How the data were processed

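ChIP-Seq libraries of embryonic mouse cortex were made with 3 NEUROD2 antibodies and with GFP antibodies. The authors mapped single-end reads to mm10 with Bowtie, kept reads that mapped once and were not duplicates, and ran MACS separately for the 3 antibodies with the GFP control of the matching species. The deposited score of each peak is 10 times the −log10 p-value of the peak caller and is not normalized between libraries. Read depth cannot be read from a peak list. Intervals are 95% Wilson intervals and cover counting error only.

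Positions, which the peak files count from 0, were changed to count from 1. Peaks were assigned to loci and merged with pandas 2.3.3, sequences were read from GRCm38.p6 with pysam 0.24.0, transcripts came from GENCODE M21, promoters from RefSeq, and intervals from scipy 1.17.1. Regions of the series cover chromosomes 1 to 19, X and Y, which leaves out 5 peaks. The merging, placement and motif steps were tested on simulated data. No group comparison was possible, so no p-value was computed.

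The members and all lists were chosen with earlier results of these data known. Of the list of partner genes, 2 are not reported here. Named are the family, the genes of the list with most and fewest regions, genes with the closest starts, the 3 genes with the nearest profile, and in each locus the 3 regions highest by ab1, those within 1 kb of the start and, at St18 and Myt1, those with all 3 antibodies; other regions and genes were named after their values were seen. Alternatives changed the lowest score, the overlap, the antibodies, the flank of the locus and the motif window.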

Additional observations from a re-analysis of the deposited data

How the results depend on the processing

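Over 11 results and 76 values under alternatives, 60 stayed within 1.5 times the count or within the interval of the share, and 16 did not. None of them is a test, so no direction or call was at stake. Requiring a score of at least 100 left 5 regions with all 3 antibodies at Myt1l and 0 at St18, 6 with 2 or more at St18, and an intron share at Myt1l of 100% in place of 97.1%. The intron share was also 100% over regions with 2 or more antibodies. A flank of 20 kb left 3 regions at Myt1. Leaving out 1 antibody changed the counts of regions with 2 or more antibodies most, since ab3 has few peaks: they ranged from 9 to 30 at Myt1l, from 0 to 4 at Myt1 and from 3 to 10 at St18, with the lowest values without ab1 or without ab2. The intron share ranged from 97.1 to 100% when 1 antibody was left out. The E-box share of 50% became 29.7% in a window of 100 bp, 76.6% with any CANNTG and 84.4% in whole regions. The last, and the window at the shared stretch, were chosen after seeing the data. No paired analysis was possible because the GFP libraries have no peak list used here and the results come from no test. With 1 library per antibody, the spread between animals is unknown, and the score does not rank the ab1 peaks that share the value 3100.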
